A study of Caenorhabditis elegans with 45 samples.

Results

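Genes of the nuclear hormone receptor family of the nematode Caenorhabditis elegans were followed through 45 libraries of polyadenylated RNA from whole worms. The family was taken as every gene whose symbol is nhr- followed by a number. Of 20182 genes in the count table, 268 had such a symbol; nhr-23, nhr-25 and nhr-85 were set aside, and 193 of the other 265 reached 450 raw counts summed over the 45 libraries. The members were thus chosen by symbol and by this sum, the only measured value used. Its median was 8502 counts over the 193 genes, and the largest was 226007, of nhr-114. Just inside the minimum stood nhr-37 with 454 counts, nhr-199 with 504 and nhr-51 with 552, and just outside it nhr-283 with 429, nhr-149 with 408 and nhr-281 with 403. The 72 genes below the minimum had a median sum of 36 counts, and 5 of them had none. Of the 193 receptors, 188 would also have reached the minimum without the libraries of hours 1 to 3 of dauer exit, and 1 had more than 50% of its counts there.

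The libraries formed 3 courses with 1 library per time point. The first was N2, the wild-type laboratory strain, leaving the dauer stage, a non-feeding larval stage that survives stress; 22 libraries were taken each hour from hour 1 to hour 22 after the larvae were put on food. The next was glp-4(bn2) in continuous growth, with 7 libraries every 2 h from hour 40 to hour 52; worms of this strain have few germ cells when grown at a raised temperature, and the sources used here do not give the temperature. The last was N2 in continuous growth from hatched larvae, with 16 libraries each hour from hour 21 to hour 36. Hours are those in the sample names; the N2 continuous samples are also labelled with a time in development 1 h later, 22 to 37 h, which the submitters put down to slow growth of that culture. All worms were plated on the food bacterium OP50. Library totals were 18521397 to 23904100 counts in dauer exit, 23978316 to 36817376 in glp-4 and 18512549 to 43984242 in N2 continuous. Levels are given in CPM, the count scaled to the total of its library. No time point was repeated and no label ties libraries to separate cultures, so p-values measure only the scatter of libraries around a fit or within a window of hours, and an SD over hours includes change with time.

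Nuclear hormone receptors are transcription factors with a DNA-binding domain of paired zinc fingers and a domain that can bind small lipophilic molecules such as steroids and fatty acids. The nematode family is far larger than that of flies or mammals, and most of its members are related to the vertebrate receptor HNF4. A few members are well studied. NHR-49 and NHR-80 act in fatty acid metabolism, NHR-8 in cholesterol balance and the response to foreign compounds, NHR-10 and NHR-68 in switching on the alternative breakdown of propionate when vitamin B12 is low, and NHR-114 in a further response to low vitamin B12. The receptor DAF-12, which is outside the symbol rule, binds steroid hormones made by DAF-9 and decides between growth and dauer formation.

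Most receptor genes were weakly expressed. Per kilobase of exon, the mean over 45 libraries had a median of 5.04 CPM over the 193 genes, with the middle 50% of genes between 2.41 and 9.11 CPM per kb and the lowest at 0.290. The highest were nhr-114 with 134, nhr-68 with 82.3, nhr-49 with 43.3, nhr-31 with 40.6, nhr-97 with 34.2 and nhr-8 with 32.2 CPM per kb. The 10 genes with the most counts held 35.5% of all receptor counts. Even so, 182 to 185 of the 193 genes had at least 1 CPM in each library of dauer exit hours 1 to 3, 157 to 175 in hours 15 to 22, 169 to 181 in glp-4 and 151 to 184 in N2 continuous.

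The family as a whole was highest in larvae that had just been fed. Its genes held 0.420 ± 0.0524% of library counts in dauer exit hours 1 to 3 (SD, n = 3), against 0.209 ± 0.0174% in hours 15 to 22 (SD, n = 8). The hour 1 to 3 libraries ranged from 0.365% to 0.470% and did not overlap hours 15 to 22, which ranged from 0.195% to 0.245%. The share was 0.268 ± 0.0157% in glp-4 (SD, n = 7) and 0.244 ± 0.0347% in N2 continuous (SD, n = 16), where the highest library had 0.319%. These are shares of the RNA of whole worms: in such bulk samples, fewer cells of a type and less RNA per cell cannot be told apart.

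**Figure D1:**
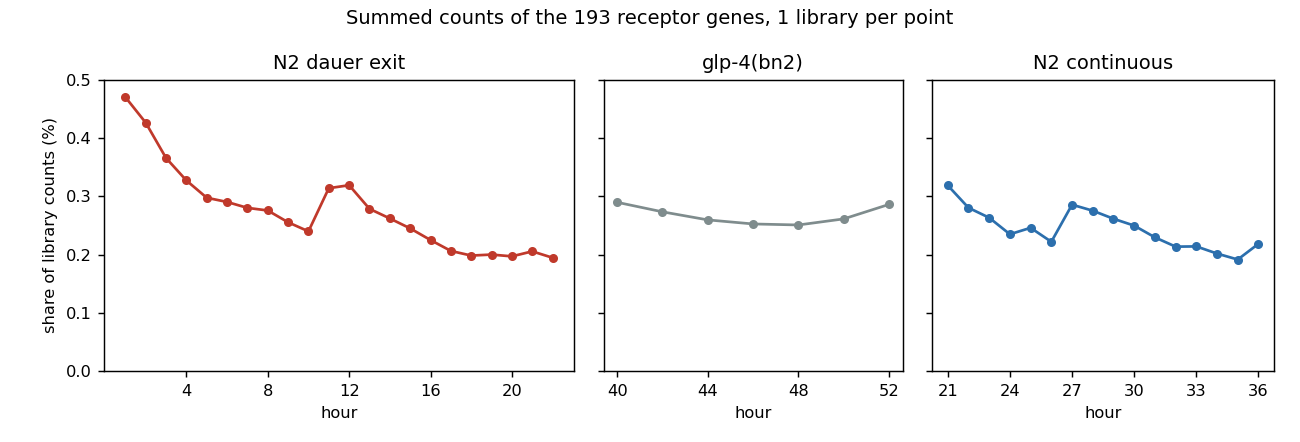
Share of all library counts held by the 193 receptor genes (vertical axis, %) against the hour (horizontal axis) in N2 dauer exit, glp-4(bn2) and N2 continuous; each point is 1 library. The share is 0.470% at hour 1 of dauer exit, 0.240% at hour 10 and 0.314% at hour 11, while the glp-4 and N2 continuous libraries lie between 0.192% and 0.319%.

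Of the 193 receptors, 125 (64.8%) had their highest CPM of all 45 libraries in dauer exit hours 1 to 3, against 26.7% of the 15194 genes that passed the same count minimum. The glp-4 course held the maximum of 35 (18.1%, against 18.6% of those genes), N2 continuous hours 29 to 36 that of 5 (2.59%, against 6.06%) and hours 21 to 28 that of 12 (6.22%, against 4.93%). In dauer exit, 9 receptors (4.66%, against 13.1%) peaked in hours 4 to 10 and 7 (3.63%, against 30.7%) in hours 11 to 22.

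Hours 1 to 3 were tested against hours 15 to 22 of the same course, with edgeR's quasi-likelihood test and Benjamini-Hochberg adjustment over all 15754 genes tested. A gene was called at an adjusted p under 0.05 and a change of at least 1 on the log2 scale. Of the 193 receptors, 108 (56%) were called higher in hours 1 to 3 and 6 (3.11%) lower. Over all genes tested, 21.2% were higher and 27.7% lower. The course had no library before hour 1, so higher or lower here is relative to later hours only. The median log2 change was 1.17 over the receptors and -0.13 over all genes tested. The change was at least 2 for 45 receptors (23.3%, against 10.2% of all genes tested) and at least 3 for 10 (5.18%, against 2.84%). Scaling by library size alone moved the median of all genes to -0.00. It called 117 receptors higher and 6 lower, where 23.2% of all genes were higher and 25.9% lower. All 3 early libraries lay above all 8 late ones for 140 receptors (72.5%, against 29.9% of all genes tested), and below them for 4 (2.07%, against 29%).

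**Figure D2:**
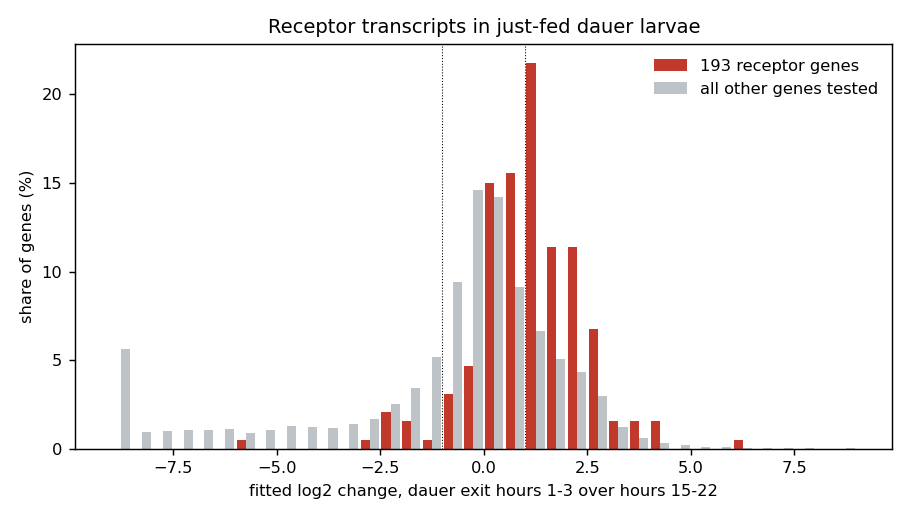
Share of genes (vertical axis, %) by fitted log2 change of dauer exit hours 1 to 3 over hours 15 to 22 (horizontal axis, in steps of 0.5), for the 193 receptors in red and all other genes tested in grey; the lowest step also holds lower values, and dotted lines mark the smallest change called. The receptors are centred near a change of 1.17, and all genes tested near -0.13.

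The steepest case was nhr-251, with 11.8, 3.80 and 4.06 CPM at hours 1, 2 and 3. Its sum over the 45 libraries was 750 counts, which met the minimum only through these 3 libraries. Its place among the members thus depends on the hours where it was high. Hours 15 to 22 had 0 at the lowest, 0.048 at the median and 0.193 CPM at the highest, and the N2 continuous libraries did not exceed 0.372 CPM. The groups did not overlap, and the fitted log2 change was 6.20 ± 0.82 (SE), which for a gene so near 0 depends on the prior count of the fit. This gene, WBGene00022756, lies on chromosome V at 600531 to 602469 on the plus strand. The next largest changes were those of nhr-198, nhr-186, nhr-124, nhr-127, nhr-277, nhr-260, nhr-167 and nhr-216, with fitted values of 3.04 to 4.19. All of these 8 had at least 3.32 CPM in each early library and at most 1.72 CPM in each of the 8 late ones.

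Among the more abundant genes of this class, nhr-7 had 71, 62.7 and 36.3 CPM at hours 1, 2 and 3. In hours 15 to 22 it had 1.92 at the lowest, 4.66 at the median and 13.4 CPM at the highest, and the fitted change was 3.02 ± 0.60. The early libraries also stood above every N2 continuous library, which reached 26.5 CPM. The gene nhr-71 had 78.0, 58.2 and 50.3 CPM at hours 1 to 3, against 11.1, 13.8 and 19.0 CPM as the lowest, median and highest of hours 15 to 22.

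Receptors with known roles were among those called higher in hours 1 to 3, though not all of them. Of 34 receptors listed for a known role or a clear counterpart in other animals, 32 were among the 193. Of these 32, 15 were called higher, 3 lower and 14 neither. Over all 193 receptors 56% were higher and 3.11% lower, and over all genes tested 21.2% and 27.7%. The propionate regulator nhr-10 had 96.1, 65.3 and 46.7 CPM at hours 1 to 3, against 15.2, 17.2 and 21.0 CPM as the lowest, median and highest of hours 15 to 22, a change of 1.87 ± 0.19. The gene nhr-14, a regulator of iron uptake, had 102, 62.7 and 53.3 CPM, against 16.3, 20.2 and 25.4 CPM, and neither gene overlapped between the windows. The gene nhr-6, counterpart of the mammalian NR4A receptors and needed for the spermatheca, averaged 27.1 ± 14.9 CPM in hours 1 to 3 and 4.33 CPM in hours 15 to 22, a change of 2.54. The gene nhr-67, counterpart of the receptor tailless and active in the anchor cell and in neurons, had 8.99, 7.56 and 6.14 CPM, against at most 2.27 CPM in hours 15 to 22.

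Further known-role receptors were higher in hours 1 to 3 without overlap between the windows. The gene nhr-40, known for a part in muscle development, had 63.5, 52.6 and 44.2 CPM at hours 1 to 3, against 13.2, 15.7 and 20.1 CPM as the lowest, median and highest of hours 15 to 22, a change of 1.60 ± 0.16. The gene nhr-69, an HNF4 relative that acts in the release of an insulin-like peptide, had 52.9, 36.9 and 49.8 CPM, against 14.8, 18.0 and 23.3 CPM, a change of 1.18 ± 0.15. These early levels decreased over the 3 h for nhr-40, whereas nhr-69 was lowest at hour 2. Of the receptors called higher in hours 1 to 3, nhr-97 had the highest mean CPM. It had 228, 321 and 333 CPM at hours 1 to 3, against 61.3, 94.2 and 173 CPM in hours 15 to 22. The change was 1.38 ± 0.28, and of the 3 early libraries that of hour 1 was lowest. The gene nhr-46 had 157, 126 and 104 CPM, against 41, 46.9 and 59.3 CPM, a change of 1.30 ± 0.15. The gene nhr-88 had 76, 55.7 and 43.9 CPM, against 14.8, 20.3 and 23.7 CPM, a change of 1.47 ± 0.20.

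Several of the best-known metabolic receptors did not pass the test against hours 15 to 22. The fatty acid regulator nhr-49 had 127 CPM at hour 1 and 103 CPM at hour 3, with hour 2 between them, against 83.7, 87.0 and 94.9 CPM as the lowest, median and highest of hours 15 to 22. The windows did not overlap, but the change of 0.27 ± 0.08 was below the minimum for a call. The gene nhr-8 was also below the minimum, with 118, 124 and 84.4 CPM, against at most 72.3 CPM in hours 15 to 22 and a change of 0.89 ± 0.17. For nhr-66, a partner of NHR-49 in lipid metabolism, the change was 0.72 ± 0.15, and for nhr-31, needed for the tubules of the excretory cell, 0.78 ± 0.13. The gene nhr-80 had 6.21, 12.8 and 20.0 CPM at hours 1 to 3 and 14.5 to 25.4 CPM in hours 15 to 22, so its windows overlapped; against N2 continuous it was called lower, with a change of -1.04, a call lost without the hour 1 library.

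Set against N2 continuous, the same 3 early libraries gave 76 receptors higher (39.4%, against 17.6% of all genes tested) and 11 lower (5.7%, against 22.2%), by edgeR's quasi-likelihood test at the same thresholds. The median log2 change was 0.82 over the receptors and -0.10 over all genes. Scaled by library size alone, these medians were 1.04 and 0.12. That scaling called 96 receptors higher and 7 lower, where 21.2% of all genes were higher and 19.6% lower. The early libraries lay above all 16 N2 libraries for 102 receptors (52.8%, against 26.8%) and below all of them for 3 (1.55%, against 11.9%). This comparison shares its early libraries with the one above, and in it stage and course cannot be told apart. Without the hour 1 library the count of receptors higher than N2 was 60, where 15.1% of all genes were higher. Calls lost without 1 of the early libraries included nhr-10, nhr-14, nhr-67 and nhr-127. The gene nhr-62, which acts in the response to dietary restriction, was called here and not against hours 15 to 22: it had 24.5, 26.1 and 19.6 CPM at hours 1 to 3, against 5.99, 8.06 and 10.3 CPM as the lowest, median and highest of N2 continuous.

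**Figure D3:**
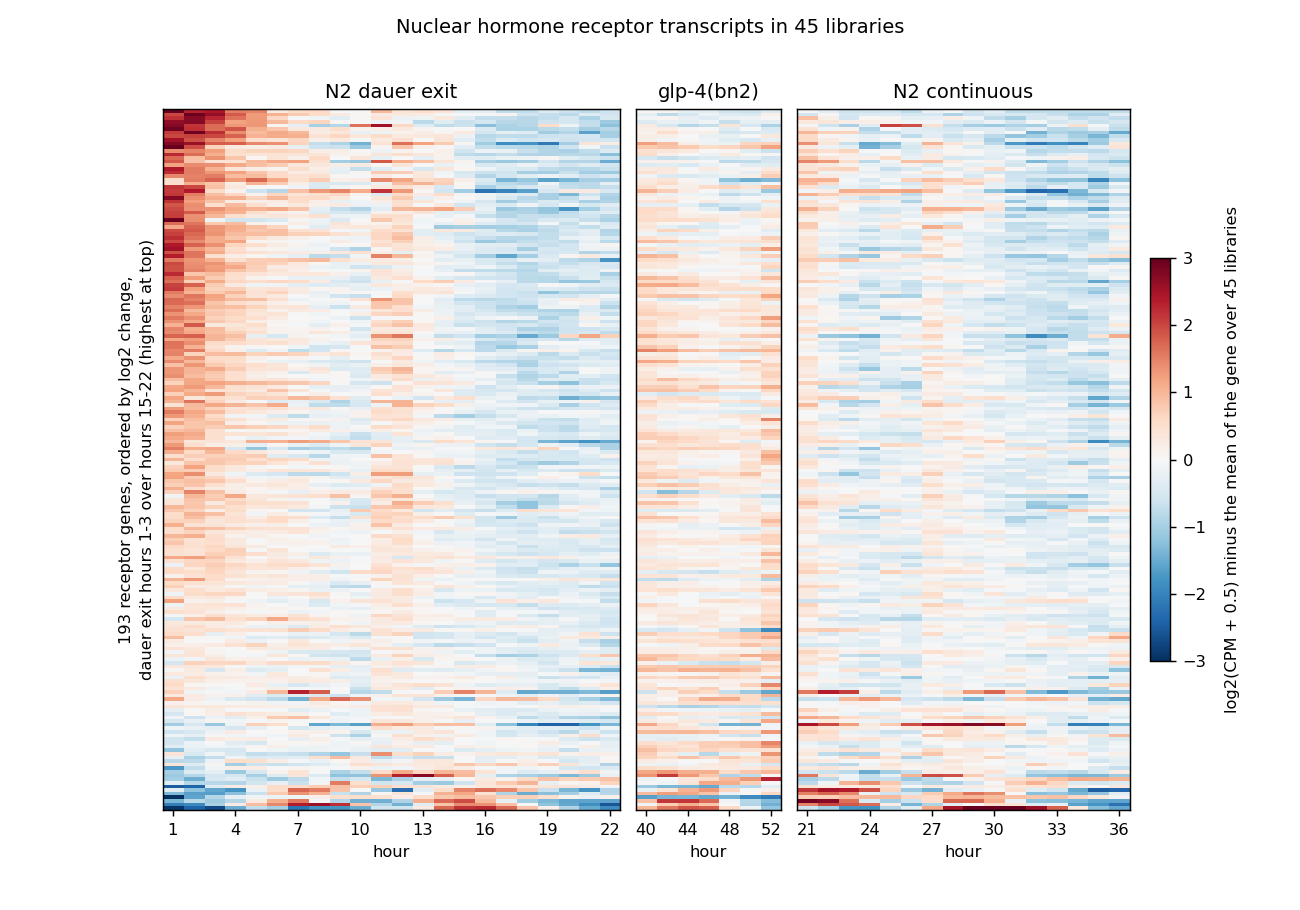
The 193 receptors (rows, in the order of their log2 change of dauer exit hours 1 to 3 over hours 15 to 22, highest at the top) in the 45 libraries (columns, by hour within N2 dauer exit, glp-4(bn2) and N2 continuous); colour is log2(CPM + 0.5) minus the gene's mean over the 45 libraries, and saturates at an 8-fold difference. Red fills most rows in hours 1 to 3 of dauer exit, and the 6 receptors called lower there lie in blue at the bottom.

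The high early levels faded over the first 10 h of feeding and then partly returned. Of the 108 receptors called higher in hours 1 to 3, 70 had their course maximum at hour 1, 30 at hour 2, 5 at hour 3 and 3 later. Relative to their own mean of hours 1 to 3, these 108 genes stood at a median of 62.1% at hour 4, 47.5% at hour 6 and 34.7% at hour 10, then at 48.3% at hour 11, 57.6% at hour 12 and 22.9% at hour 18. These 108 were chosen for being high in hours 1 to 3, which fixes part of the decline. Over all 193 receptors the medians were 74.4% at hour 4, 65.0% at hour 6, 47.2% at hour 10, 75.4% at hour 11, 75.9% at hour 12 and 38.4% at hour 18. Between hours 10 and 11, 165 of all 193 receptors increased (85.5%, against 63.6% of all genes with at least 450 counts), with a median log2 step of 0.40 against 0.14. A like step stood in N2 continuous between hours 26 and 27, where 169 receptors increased (87.6%, against 72.4%), and a smaller one between hours 35 and 36, with 151 (78.2%, against 70.2%). Each step rests on 2 single libraries and was not tested.

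The 6 receptors lower in hours 1 to 3 than in hours 15 to 22 included nhr-114 and nhr-68. These had the highest mean levels per kilobase of exon. The gene nhr-114 (WBGene00003704, chromosome V, 4187202 to 4190008, plus strand) had 7.98, 55.4 and 91.2 CPM at hours 1, 2 and 3. In hours 15 to 22 it had 144 at the lowest, 254 at the median and 316 CPM at the highest, a fitted change of -2.34 ± 0.51. The gene climbed in each of the first 5 libraries to 153 CPM at hour 5. Against hours 20 to 22 alone, which averaged less than the full window, its adjusted p by the same edgeR test was 0.0688. The propionate regulator nhr-68 (WBGene00003658, chromosome V, 11573440 to 11575709, plus strand) had 17.0, 18.2 and 75.9 CPM at hours 1 to 3, against 96.9, 126 and 134 CPM as the lowest, median and highest of hours 15 to 22, a change of -1.86 ± 0.38. Neither gene overlapped between the windows, and both also lay below every N2 continuous library, of which the lowest had 155 CPM for nhr-114 and 94.7 CPM for nhr-68. In contrast to these, nhr-10 of the same pathway was high in hours 1 to 3.

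The gene nhr-76, which acts in the intestine in fat loss driven by serotonin, had 5.84, 4.14 and 8.52 CPM at hours 1 to 3, against 12.8, 19.4 and 23.2 CPM in hours 15 to 22, a change of -1.71 ± 0.25. The gene nhr-234 had 0.042, 0.289 and 0.132 CPM, against 0.637, 5.55 and 18.9 CPM, with a change of -5.81 ± 1.27. Both were separated from hours 15 to 22 in every library. By limma-voom, the adjusted p of nhr-234 was 0.0501. The other 2, nhr-172 and nhr-181, stayed under 5 CPM and overlapped between the windows, and nhr-172 lost its call without any 1 of the 3 early libraries and nhr-181 without that of hour 2 or of hour 3.

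Genes around these receptors were followed through 5 lists. Of 8 other nuclear receptors, 6 were higher in hours 1 to 3 than in hours 15 to 22 and 1, nhr-23, was lower. Over all genes tested, 21.2% were higher and 27.7% lower. The gene daf-12 had 75.9 to 86.6 CPM in hours 1 to 3 and 24.3 to 37.2 CPM in hours 15 to 22. The change was 1.43 ± 0.14. Of 7 coregulators, 1 was higher, namely din-1, which encodes a corepressor partner of DAF-12. It averaged 242 ± 31.6 CPM in hours 1 to 3 and 109 ± 39.2 CPM in hours 15 to 22. Of 5 tested genes of steroid ligand synthesis, 1 was higher, namely daf-9. It averaged 33.4 ± 7.85 CPM in hours 1 to 3, against 4.97 ± 2.07 CPM, a change of 2.62 ± 0.34. With 21.2% of all genes tested higher, 1 call does not set either of these 2 lists apart.

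Most listed genes that act downstream of these receptors were lower in hours 1 to 3 than in hours 15 to 22. Over all genes tested, 27.7% were lower. Of 6 tested lipid genes that NHR-49 and NHR-80 are known to control, 4 were lower and none higher. The 4 were fat-5, fat-6 and fat-7, which encode fatty acid desaturases, and icl-1, which encodes an enzyme of the glyoxylate cycle. The desaturase gene fat-6 averaged 171 ± 113 CPM in hours 1 to 3 and 515 ± 176 CPM in hours 15 to 22, a change of -1.73 ± 0.45. Of 5 genes of the propionate shunt, 4 were lower. The gene hphd-1, which encodes a dehydrogenase of the shunt, had 14.2 to 43.8 CPM in hours 1 to 3 and 445 to 750.4 CPM in hours 15 to 22, and acdh-1, the first enzyme, averaged 367 ± 381 CPM and 1983 ± 403 CPM in the same windows. These lists were drawn up with results of these data known, and the counts are descriptions.

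The markers of whole tissues also differed between the windows. Neuronal markers, 8 genes of which 5 were called higher in hours 1 to 3, summed to 1377 to 1995 CPM there. In hours 15 to 22 they summed to 355 to 515 CPM. Pharyngeal markers, 3 of 3 higher, summed to 2094 to 2666 CPM and 462 to 1190 CPM in the same windows. Intestinal markers, of which 2 of 6 were higher and 1 lower, summed to 2947 to 3295 CPM and 1293 to 1948 CPM. Body-wall muscle markers, 5 of 5 lower, summed to 345 to 390 CPM and 7734 to 10010 CPM. Germline markers, 3 of 6 lower, summed to 751 to 995 CPM and 1502 to 2205 CPM. Epidermal markers, of which 1 of 5 was higher and 3 lower, summed to 103 to 116 CPM and 107 to 1059 CPM. The part of these shifts in the receptor values was not tested.

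A smaller share of receptors than of all genes was called cycling. In N2 continuous an 8 h wave was fitted beside a linear trend, and a gene was called cycling at an adjusted p under 0.05 by edgeR's quasi-likelihood test and an amplitude, from mean to peak, of at least 0.5 on the log2 scale. Of 191 receptors tested, 29 cycled (15.2%, against 26.3% of 15622 genes). Their amplitudes ran from 0.51 to 2.49 with a median of 0.99, against 1.05 for all cycling genes. An amplitude of 1 was reached by 14 of the 191, and by 13.8% of all genes tested. A further 70 receptors passed the adjusted p with a smaller amplitude, a count not made over all genes. Over all tested, cycling or not, the median amplitude was 0.277 for receptors and 0.273 for all genes. For 17 of the 29, the 8 libraries of the first and second cycle correlated at 0.7 or more.

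The cyclers with known counterparts were nhr-91 and nhr-41. The gene nhr-91 (X, 15309369 to 15314899, plus strand), counterpart of the vertebrate germ cell nuclear factor, ran between 5.67 and 104 CPM in N2 with a median of 22.4 CPM. It stood at 104 CPM at hour 22 and 66.3 CPM at hour 30, with 11.4 CPM at hour 25 between them, and its amplitude was 1.24 ± 0.18 with a fitted peak at 21.7 h. Exons of nhr-91 overlap those of glb-28 on the other strand. The gene nhr-41 (IV, 1386215 to 1399353, plus strand), counterpart of the fly receptor DHR78, ran between 9.20 and 68.7 CPM with a median of 18.5 CPM and peaked later. It had 68.7 CPM at hour 24 and 55.9 CPM at hour 32, with 10.7 CPM at hour 29 between them, and an amplitude of 1.32 ± 0.11 with a fitted peak at 24.3 h.

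Other wide waves belonged to receptors without a well-known role. The widest was that of nhr-127, at 2.49 ± 0.29 with a peak at 26.1 h, from 0.100 to 4.84 CPM; its exons overlap those of nhr-218 on the same strand, so the pair is uncertain. Amplitudes of 2.13 ± 0.36, 1.88 ± 0.49 and 1.62 ± 0.17 followed for nhr-265, nhr-155 and nhr-181, all of which fell below 1 CPM between peaks. The wave of nhr-155 did not repeat between cycles (r = 0.12 over 8 hours) and lost its call with no trend term. The gene nhr-74 peaked at 23.1 h, nhr-172 at 21.2 h, nhr-113 at 23.0 h, nhr-53 at 27.5 h and nhr-7 at 28.1 h, with amplitudes of 1.30 to 1.45.

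Most cycling receptors peaked between 27 and 29 h or between 21 and 23 h, which are neighbours on an 8 h clock that starts at hour 21. There, 14 of 29 cycling receptors (48.3%, against 25.4% of all cycling genes) peaked from 27 to 29 h and 8 (27.6%, against 17.0%) from 21 to 23 h. From 23 to 25 h, where all cycling genes were most frequent with 38.0%, stood 3 receptors (10.3%), and from 25 to 27 h 4 (13.8%, against 19.6%). The 29 receptors share their libraries, and no test was made of these shares.

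**Figure D4:**
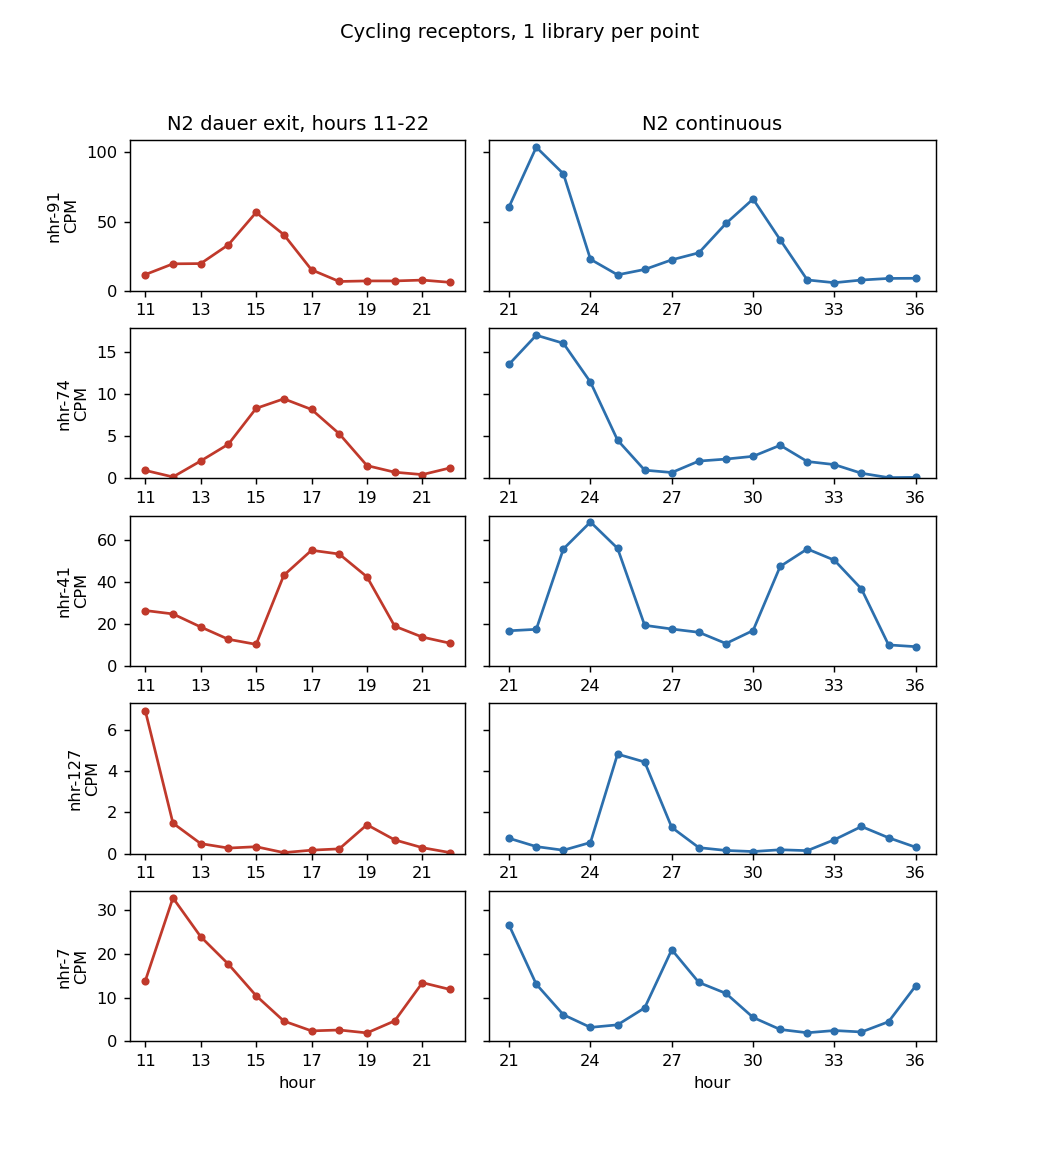
CPM (vertical axes) of nhr-91, nhr-74, nhr-41, nhr-127 and nhr-7 against the hour (horizontal axes) in N2 dauer exit from hour 11 on and in N2 continuous; each point is 1 library and both courses of a gene share an axis. From top to bottom the fitted N2 peaks move from 21.7 to 28.1 h, and nhr-74 reaches 17.0 CPM in the first N2 cycle but 3.91 CPM in the second.

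For dauer exit, hours 11 to 22 were used for the same fit. Of 191 receptors, 41 cycled (21.5%, against 32.7% of 15360 genes), with a median amplitude of 0.75, against 1.24 for all cycling genes. Of these, 23 also cycled in N2 continuous, which is 56.1% of the dauer exit cyclers and 79.3% of the N2 cyclers; over all genes the shares were 69% and 84.3%. Over all tested, cycling or not, the median amplitude was 0.295 for receptors and 0.318 for all genes. Without a trend term 14 receptors cycled in dauer exit (14.5% of all genes), and with a quadratic one 26 (21.7%). The largest amplitudes were 2.86 ± 0.55 for nhr-265, 2.11 ± 0.34 for nhr-74, 2.10 ± 0.46 for nhr-127, 1.95 ± 0.40 for nhr-113 and 1.78 ± 0.37 for nhr-155, and all 5 also cycled in N2. The 18 receptors called only in the dauer exit fit included nhr-6 and nhr-97, for which a difference between courses was not called.

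The shared cyclers peaked in much the same order in both courses. Over 3468 genes cycling in both courses, peaks in dauer exit equalled peaks in N2 continuous plus a shift of 1.41 h, counted on the 8 h clock, and each of the 23 shared receptors peaked within 0.638 h of that time. The median deviation was 0.258 h, against 0.170 h over all shared genes. The fitted peak of nhr-91 was 15.3 h in dauer exit and 21.7 h in N2 continuous, that of nhr-41 17.6 h and 24.3 h, and that of nhr-7 13.4 h and 28.1 h. Over all 22 h of dauer exit, nhr-91 stood highest at hours 7 and 15, with 101 and 56.6 CPM, and nhr-41 at hours 9 and 17, with 91.5 and 55.2 CPM. In both genes the later of these maxima was the lower one, as the second was in N2 continuous. In glp-4, nhr-41 had 27.6 CPM at hour 42, 62.2 CPM at hour 46 and 15.9 CPM at hour 52. A joint edgeR fit found no receptor, and no gene of 15824, whose wave differed between the courses at an adjusted p under 0.05. It used the shift of 1.41 h, estimated from the 3468 genes cycling in both courses, so agreement in time was partly set in advance. The lack of calls does not show that the waves were equal. Without adjustment, 5 of 193 receptors had a p under 0.05, against 3 by limma-voom, 4 with no filter on low counts, 7 by RLE scaling and 14 by library size alone, and none of these fits called a gene. The smallest was that of nhr-19, with a raw p of 0.005 and an adjusted p of 0.855 in that edgeR fit; its amplitude was 0.70 in dauer exit and 0.35 in N2 continuous. With the shift set 1 h smaller, 14 receptors were called, where 15.2% of all genes were, and with it 1 h larger, 31 were, where 19.8% of all genes were.

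**Figure D5:**
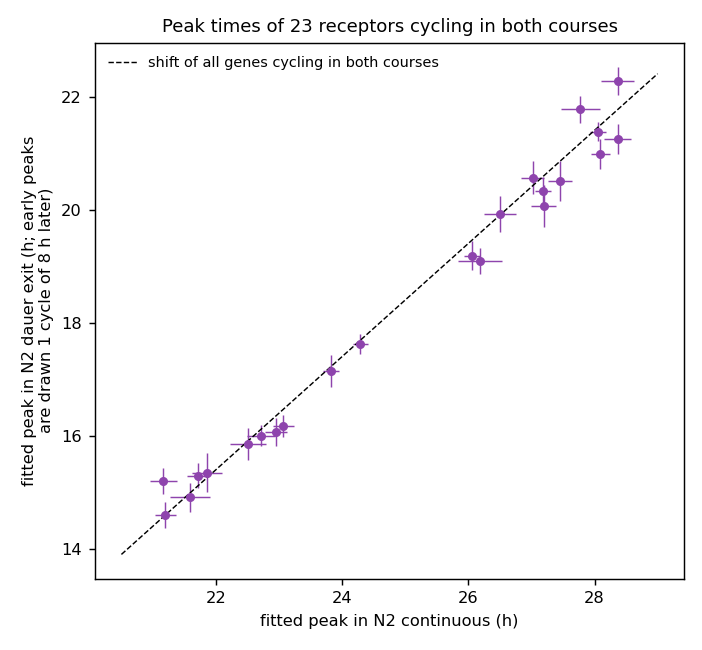
Fitted peak hour in N2 dauer exit (vertical axis, h) against that in N2 continuous (horizontal axis, h) for the 23 receptors cycling in both courses; bars are standard errors, the dashed line is the shift of all genes cycling in both courses, and dauer exit peaks of the first fitted hours are drawn 1 cycle of 8 h later. All 23 points lie within 0.638 h of the line.

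One receptor was called higher in the later N2 cycle than in the earlier one. The 8 libraries of hours 29 to 36 were compared with those of hours 21 to 28, hour by hour within the cycle, by edgeR's quasi-likelihood test. Of 191 receptors, 1 rose (0.524%, against 15.9% of 15862 genes) and 23 fell (12%, against 4.48%); with a linear hour beside the wave, 2 rose and 51 fell, where 20.6% of all genes rose and 15.3% fell. The median log2 change was -0.36 over the receptors and -0.07 over all genes, and the fitted change was negative for 170 of 191. The summed share of the family was 0.223 ± 0.0235% in hours 29 to 36 and 0.266 ± 0.0311% in hours 21 to 28 (SD, n = 8 each). Of the 23 that fell, 10 cycled in N2 continuous, against 15.2% of all receptors tested, and 2 in the dauer exit fit alone. Of the same 23, 17 were high in dauer exit hours 1 to 3, against 56% of all receptors. These overlaps were not compared with those of all genes that fell.

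The receptor that rose was nhr-76 (WBGene00015497, IV, 627537 to 633963, plus strand). It had 13.6 at the lowest, 21.6 at the median and 27.6 CPM at the highest in hours 29 to 36, against 5.45, 7.12 and 11.8 CPM in hours 21 to 28. The cycles did not overlap, each of the 8 hours was higher in the second, and the change was 1.41 ± 0.17, with an adjusted p of 0.000125 in the edgeR test.

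The deepest falls were those of nhr-155, nhr-265, nhr-74, nhr-6, nhr-150 and nhr-270, with log2 changes from -2.96 to -1.70. Each was lower in all 8 hours of the second cycle. Levels were low for nhr-155, with means of 0.358 CPM in the second cycle and 2.08 CPM in the first. For nhr-150 these means were 0.535 and 2.02 CPM. Some of the receptors that fell, among them nhr-167, nhr-51 and nhr-37, averaged under 1 CPM in both cycles. The gene nhr-74 averaged 1.64 ± 1.34 CPM in the second cycle and 8.26 ± 6.94 CPM in the first, a change of -2.36 ± 0.28. For nhr-6, which is uncertain because its exons overlap those of C48D5.3 on the other strand, the means were 3.25 ± 2.10 CPM and 12.3 ± 4.39 CPM, and the highest library of the second cycle had 6.61 CPM against 6.56 CPM in the lowest of the first. The gene nhr-67 averaged 1.46 ± 0.43 CPM in the second cycle and 3.49 ± 1.55 CPM in the first, and nhr-91 23.8 ± 23.6 CPM and 43.5 ± 35.1 CPM.

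In glp-4, 4 of 189 receptors rose with the hour (2.12%, against 7.46% of 14109 genes) and 6 fell (3.17%, against 3.54%), by edgeR's quasi-likelihood test of a linear trend with a fitted change of at least 1 over the course. Over all genes, 1052 rose and 499 fell; scaled by library size alone, 887 rose and 907 fell, with 3 and 7 receptors. The largest rise was again that of nhr-76, with 10.6, 11.8, 15.7, 18.0, 24.6, 31.2 and 62.1 CPM at hours 40, 42, 44, 46, 48, 50 and 52. It increased in every library, with a fitted change of 2.54 ± 0.24. Without hour 52 the fitted change was 1.77, which spans only hours 40 to 50. Smaller rises were fitted for nhr-193, at 1.19 ± 0.25, and nhr-152, at 1.19 ± 0.21.

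Among receptors that fell in glp-4 and averaged at least 1 CPM there, nhr-270 had a fitted change of -2.84 ± 0.51, nhr-6 of -1.89 ± 0.28 and nhr-137 of -1.44 ± 0.28. The gene nhr-6 had 14.8 CPM at hour 40 and 2.95 CPM at hour 52, and nhr-137 had 7.33 CPM at hour 52 and up to 21.1 CPM before. The hour 52 library stood apart for several receptors. Without it the calls of nhr-152 and nhr-137 were lost, with a change of 0.88 for nhr-152 and of -1.03 for nhr-137. These 2 changes span only hours 40 to 50, yet the same minimum of 1 was used. Part of the loss can thus come from the shorter span.

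Between strains only levels can be set side by side, since strain and hour both differ and cannot be told apart. All 7 glp-4 libraries lay above all 16 N2 continuous libraries for 15 receptors (7.77%, against 3.96% of genes with at least 450 counts) and below them for 3 (1.55%, against 15.9%). The 3 lower ones were nhr-114, nhr-68 and nhr-86, and the first 2 are the receptors with the highest mean level per length. The gene nhr-114 had 38.2 at the lowest, 56.8 at the median and 64.2 CPM at the highest in glp-4, against 155, 302 and 338 CPM in N2 continuous. For nhr-68 the values were 34.5, 46.3 and 79.0 CPM in glp-4 and 94.7, 121 and 143 CPM in N2 continuous. The gene nhr-86, which encodes a receptor known for sensing bacterial metabolites in the intestine, had 16.8, 20.1 and 22.7 CPM in glp-4 and 30.4, 35.9 and 39.2 CPM in N2 continuous.

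In the propionate shunt, acdh-1 averaged 336 ± 72.9 CPM in glp-4 and 2611 ± 384 CPM in N2 continuous. Germline markers summed to 52.2 to 91.1 CPM in glp-4 and 596 to 1994 CPM in N2 continuous, and their part in the 3 lower receptors was not tested. Intestinal markers summed to 2086 to 3016 CPM in glp-4, inside the 1470 to 3567 CPM of N2 continuous. Among the 15 higher receptors, nhr-11 had 10.2, 12.2 and 17.4 CPM as the lowest, median and highest in glp-4 and 3.12, 4.46 and 6.53 CPM in N2 continuous, and nhr-112 had 6.89, 9.99 and 11.9 CPM in glp-4 and 1.30, 2.76 and 6.20 CPM in N2 continuous.

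In all, 47 receptors cycled in at least 1 of the 2 N2 courses. Of these, 26 (55.3%, against 56% of all 193) were also high in dauer exit hours 1 to 3. A further 3 were low, as were 3.11% of all 193. Of all genes with at least 450 counts, 15.3% of those cycling and 19.9% of the whole were high in hours 1 to 3. Within the courses, 59 of the 193 were called neither in hours 1 to 3, nor as cycling, nor between the N2 cycles, nor in the glp-4 trend (30.6%, against 37.1% of all genes with at least 450 counts). The receptor nhr-7 was both among the 10 largest changes called higher in hours 1 to 3 and among the 10 widest N2 waves, as was nhr-127.

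The family is crowded on chromosome V, which holds 127 of the 193 genes (65.8%), ahead of IV with 27, X with 16, II with 11, I with 7 and III with 5. Receptors on V were weaker per length, with a median of 3.95 CPM per kb, against 9.23 for those elsewhere. High levels in hours 1 to 3 were called for 74 of the 127 on V (58.3%) and 34 of the 66 elsewhere (51.5%), and waves in N2 for 21 (16.5%) and 8 (12.1%); these shares were not tested against each other. Of these genes, 61 pairs stood next to each other on a chromosome with no other protein-coding gene between them. Across the 45 libraries such neighbours correlated with a median r of 0.68 (log2 CPM), against 0.47 over all 18528 pairs of receptors, and r was above 0.7 for 30 pairs (49.2%, against 20.0%). The closest pair was nhr-102 and nhr-84 on V, with r = 0.97; both cycled in both N2 courses with peaks at 27.0 and 27.2 h in N2 continuous. At the other end, nhr-172 and nhr-171 had r = -0.04. All pairs share libraries, and how reads common to similar neighbours were assigned is not stated in the labels or files, so neighbours of like sequence are uncertain.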

How the data were processed

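The authors deposited raw counts per gene for polyadenylated RNA of 45 libraries, per the file headers. The kit used for sequencing keeps the strand, per the labels' protocols. A second deposited table equals log2 of the count scaled to the mean library total of its course plus 8, and was only checked against the counts. The aligner, annotation and use of strand in counting are not stated. Symbols came from a names table, and coordinates and exon lengths from the WBcel235 annotation, whose build may differ from that behind the counts.

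Counts were scaled by TMM and tested with edgeR 4.0.16 in R 4.3.3 (quasi-likelihood test, Benjamini-Hochberg adjustment over all genes tested, called at an adjusted p under 0.05 and a log2 change of at least 1, or a wave amplitude of at least 0.5), after a filter on low counts. Fits used the windows of hours named beside each result, an 8 h wave with a linear hour in N2, a joint wave model for the courses, and a linear hour in glp-4. limma 3.58.1 and DESeq2 1.42.0 served as alternatives, as did other scalings, filters, periods, trends and left-out libraries. Scripts were tested on simulated data.

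With 1 library per hour, the number of libraries limits the precision. The members, gene lists and marker lists were chosen with earlier results of these data known. Receptors named were those with the largest called changes or amplitudes in each comparison (with a mean of at least 1 CPM), the smallest p of the wave difference, the receptors of a known role, those separated between glp-4 and N2 continuous, and those at the minimum; nhr-102, nhr-84 and nhr-171 were named after their values were seen.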

Additional observations from a re-analysis of the deposited data

Results flagged for a closer look

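Of 59 named receptors, 5 had a glp-4 library far from the other 6. Among repeated libraries, chance flags about 1 in 20 such groups. These libraries were successive hours, where a late change also sets the last one apart, so that rate does not apply. In all 5 receptors the flagged library was that of hour 52, the last. The gene nhr-92 had 9.38 CPM there, against 4.17 to 5.21 CPM in the others. The gene nhr-48, in the same subfamily as daf-12 and nhr-8, had 27.1 CPM, against 37.7 to 44.2 CPM. The fatty acid regulator nhr-49 had 75.6 CPM, against 99.3 to 105 CPM. The gene nhr-69 had 46.2 CPM, against 26.3 to 31.2 CPM, and nhr-71 had 13.5 CPM, against 18.3 to 22.9 CPM. The cause was not tested.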

How the results depend on the processing

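Counts below are of receptors called. Receptors higher in dauer exit hours 1 to 3 than in hours 15 to 22 numbered 104 to 121 (20.9% to 24.7% of all genes). That range covers the other scalings, filters, tools and windows. With 1 early library left out they numbered 101 to 111 (19.6% to 21.9%). Those lower numbered 4 to 6 in all these fits (22.0% to 29.9%). Against N2 continuous, 11 were lower, but 7 by library size only (19.6% of all genes) and 5 by limma-voom (8.97%). With 1 early library left out, 5 to 11 were lower (13.1% to 14.8%) and 60 to 84 higher (15.1% to 18.0%). The 29 N2 cyclers became 14 at an amplitude of at least 1. The 41 dauer exit cyclers became 25 at a period of 7.5 h, 14 with no trend term, 26 with a quadratic hour and 16 at an amplitude of at least 1. Between N2 cycles, a linear hour beside the wave gave 2 higher and 51 lower (20.6% and 15.3% of all genes). In glp-4, a linear and quadratic hour gave 9 rising and 12 falling (11.8% and 8.09% of all genes). The wave difference between courses gave 14 calls with the shift 1 h smaller (15.2% of all genes called) and 31 with it 1 h larger (19.8%). For nhr-265, not called in hours 1 to 3, a natural spline turned the change to 5.05. The causes were not tested.

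Chosen after seeing the data, glp-4 without hour 52 gave 3 rising and 6 falling, the N2 cycles without hours 21 and 29 gave 1 higher and 21 lower, and dauer exit hours 13 to 22 gave 33 cyclers. Values of the 59 named receptors were recomputed gene by gene. Of these, 3081 kept direction and side of the threshold, 95 fell below it, 80 passed it and 1 reversed. The counts of receptors called, some of which moved, and the receptors not named are not part of this tally. No paired analysis was possible because a replicate number is only an hour of 1 course, and the 2 cycles of N2 continuous share no such number; they were matched by the hour within the cycle. Features of promoters and proteins were not run, since no sequence was used here. Receptors under 1 CPM rest on few counts, and their changes are the least precise.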
